A study of Mus musculus with 19 samples.

Results

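The Ras and Rheb genes examined here are Rras, Rras2, Mras, Hras, Nras, Rheb and Rhebl1, 7 of the 53379 gene rows in the deposited table. Rras was chosen because it was higher in Alyref KO morulae, and Rhebl1 because it was higher in morulae labelled Gabpb1 KO. The other 5 were added as paralogs of these. Each symbol had 1 row, and all 7 were among the 18410 genes tested.

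PolyA RNA of 19 mouse embryos of the B6D2F1 strain was sequenced embryo by embryo. They were made by in vitro fertilisation and grown in KSOM medium (37 °C, 5% CO2) until 96 hours post insemination. Parents were both heterozygous for a deletion in Alyref, an mRNA export adaptor, or both heterozygous for a deletion in Gabpb1, which encodes part of the transcription factor GABP, or both wild type (WT). From the Alyref cross came 2 morulae called KO, 3 called non-KO and 3 blastocysts, all non-KO. From the Gabpb1 cross came 3 morulae with the KO label, 2 without it and again 3 non-KO blastocysts, and the WT parents contributed 3 blastocysts. Embryos were called KO when reads over the deleted region were missing from the same libraries that gave the expression values, and non-KO embryos are WT or heterozygous. The oocytes of KO embryos came from heterozygous females. Every KO embryo was a morula at a time when other embryos of the crosses were already blastocysts.

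Ras proteins are membrane-bound switches that are active with GTP and inactive with GDP. Exchange factors such as SOS load them with GTP, and GTPase-activating proteins such as neurofibromin switch them off. Hras and Nras encode classical Ras proteins that recruit RAF kinases to the membrane and so start the MEK-ERK cascade, which in the mouse blastocyst carries the FGF signal that sets primitive endoderm against epiblast. Rras, Rras2 and Mras encode the R-Ras branch of the family, with Rras known for its part in integrin activation and Mras for the complex with SHOC2 and a phosphatase that frees RAF from inhibition. Rheb and its paralog Rhebl1 sit on lysosomes and other membranes and activate the growth kinase mTORC1, and the TSC complex switches Rheb off.

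The 7 coding sequences were 50.5% to 75.1% identical over aligned bases, pair by pair, and their last codons show where the proteins differ as membrane anchors. The ends are shown because Ras and Rheb proteins are prenylated on a cysteine near the C-terminus, and some are also palmitoylated on cysteines just before it. The last 63 bases of each coding sequence, stop codon included, were taken from the GENCODE M21 transcripts (GRCm38) and are printed 5′ to 3′ with cysteine codons in capitals.
Rras: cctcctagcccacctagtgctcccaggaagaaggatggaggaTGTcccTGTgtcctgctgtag
Rras2: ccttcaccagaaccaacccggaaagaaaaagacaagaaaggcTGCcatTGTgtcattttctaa
Mras: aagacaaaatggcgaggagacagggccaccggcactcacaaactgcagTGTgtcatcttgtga
Hras: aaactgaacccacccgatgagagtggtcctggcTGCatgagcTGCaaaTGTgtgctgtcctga
Nras: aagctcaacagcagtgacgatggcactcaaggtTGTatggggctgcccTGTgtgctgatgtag
Rheb: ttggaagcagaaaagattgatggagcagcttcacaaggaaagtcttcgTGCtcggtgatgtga
Rhebl1: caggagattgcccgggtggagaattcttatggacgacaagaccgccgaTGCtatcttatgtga
In 7 of 7 the fourth codon before the stop encodes cysteine. Upstream of it, Hras has 2 more cysteine codons in this stretch, Rras, Rras2 and Nras have 1 each, and Mras, Rheb and Rhebl1 have 0. Over whole coding sequences Hras and Nras were the most alike of the 21 pairs, with 75.1% of aligned bases identical. Rheb and Rhebl1 were 56.2% identical and Rras and Rras2 68.6%.

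These differences bear on the counts, since reads of a gene with a near copy can be split between them. No stretch of 50 bases in the annotated transcripts was shared between any pair of the 7 genes. Rras, Rras2, Mras, Hras and Rhebl1 shared 0 such stretches with any other gene, Nras shared 41 of 5594 and Rheb 18 of 7670.

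Rras and Hras both lay higher in Alyref KO morulae (values below), so their promoter windows are shown, from 250 bases before to 50 after the RefSeq start (GRCm38.p6). The windows were searched on both strands for the GC box GGGCGG, the E-box CACGTG and the core CCGGAAG that ETS factors such as GABP bind, all of which are in capitals where they occur. TTAGCAT, also in capitals, was added after it was seen to recur in the Rras window, so its count there is a description of a chosen word.
Rras, chr7:45017692-45017991, plus strand: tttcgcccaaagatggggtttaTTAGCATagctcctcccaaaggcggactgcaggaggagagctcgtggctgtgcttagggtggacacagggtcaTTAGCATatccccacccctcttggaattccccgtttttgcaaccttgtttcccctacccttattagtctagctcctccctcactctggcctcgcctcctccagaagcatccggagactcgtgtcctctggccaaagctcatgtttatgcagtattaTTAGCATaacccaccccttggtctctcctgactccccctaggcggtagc
Hras, chr7:141193955-141194254, minus strand: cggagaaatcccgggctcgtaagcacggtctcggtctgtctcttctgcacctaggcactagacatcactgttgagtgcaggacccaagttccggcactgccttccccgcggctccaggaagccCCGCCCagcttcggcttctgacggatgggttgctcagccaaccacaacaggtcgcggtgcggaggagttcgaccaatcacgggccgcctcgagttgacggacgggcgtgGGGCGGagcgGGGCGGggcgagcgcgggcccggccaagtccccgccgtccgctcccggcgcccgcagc
RefSeq has 3 windows for Rras, of which the one nearest the gene's start in the table is printed. It holds 3 copies of TTAGCAT and 0 of the GC box, the E-box and the ETS core, and the other two windows hold 0 of all these words. The Hras window holds 3 GC boxes, 1 of them as its reverse complement, and 0 of the other words. Among 32851 RefSeq promoter windows of this length, 35.7% hold a GC box, 7.15% the E-box, 8.86% the ETS core and 2.94% at least 1 TTAGCAT. As many as 3 copies of TTAGCAT occur in 2 windows, 0.00609% of all, 1 of which is the Rras window shown. RefSeq windows were at hand for 6 of the 7 genes (Rhebl1 is named only). The ETS core was in none of them, the E-box was in those of Nras and Rheb, and Rras2 and Mras hold 2 GC boxes each, Nras 3 and Rheb 1.

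Libraries held 7.49 to 31.5 M gene counts (M for megacounts), with 13.6 M as the median. The 7 genes were well covered: the lowest count was 51 for Rras and 146 for Rhebl1, and the other 5 had at least 190 in every embryo. Summed CPM (the count scaled to library size, used for all levels unless FPKM is named) of 10 trophectoderm markers were 4689 to 7655 in the 9 blastocysts and 508 to 4684 in the 10 morulae. Of 9 cumulus and granulosa markers, 4 had 3 counts or fewer in each of the 19 embryos, and the summed level did not pass 2.81 CPM. The labels give no fertilisation or sequencing batch, so a batch effect and a cross effect cannot be told apart. Replicates are separate embryos.

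Alyref itself was at 47.8 and 58.5 CPM in the 2 Alyref KO morulae and at 211, 291 and 162 CPM in the 3 non-KO morulae. All other embryos had at least 162 CPM. The KO label was given from missing reads in these same libraries, so lower Alyref counts are no independent check of it. Gabpb1 was at 78.1, 259 and 150 CPM in the 3 morulae labelled Gabpb1 KO and at 93.8 and 83.2 CPM in the 2 non-KO morulae, so the whole-gene counts go against the label. Counts per gene cannot show the deleted part alone, and directions in that comparison rest on the label.

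Rras, the R-Ras gene, was low in morulae and high in blastocysts, and the Alyref KO morulae were the exception. It was at 18.3 and 15.8 CPM in the 2 Alyref KO morulae. The 3 non-KO morulae had 5.06, 5.40 and 5.70 CPM. The groups were far apart relative to their spread, with means of 17.1 ± 1.80 (SD, n = 2) and 5.39 ± 0.323 CPM (SD, n = 3), a 3.17-fold difference and a log2 fold change of 1.66 (SE 0.32). Since Rras was chosen on this comparison the value is a description. Among the 19 embryos the KO pair fell within the blastocyst range of 10.1 to 23.3 CPM (median 18.2, n = 9), while the other 8 morulae lay between 4.11 and 9.73 CPM. The KO pair had summed trophectoderm markers of 1101 and 2023 CPM, below all 9 blastocysts and overlapping with the non-KO morulae at 1165 to 2275 CPM. Summed oocyte markers (8 genes) were 14.2 and 20.7 CPM in the KO pair and 47.2 to 65.8 CPM in the non-KO morulae. The same sum was 35.5 to 134 CPM in the Gabpb1 cross morulae and 82.1 to 187 CPM in the blastocysts. These sums are therefore not read as an amount of leftover oocyte RNA, and their part in the Rras difference was not tested. In bulk RNA of an embryo, more cells with a transcript and more transcript per cell cannot be told apart.

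In the Gabpb1 cross Rras lay the other way. The 3 morulae labelled Gabpb1 KO had 5.07, 4.72 and 4.11 CPM and the 2 non-KO morulae 7.96 and 9.73 CPM. The ranges did not overlap, and the log2 fold change was -0.93 (SE 0.32). The KO comparisons of the crosses share no embryo, and the difference between them was not tested because Rras was chosen on one of them.

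Rhebl1, the second Rheb gene, was a morula transcript in these embryos with the exception of the Gabpb1 cross non-KO morulae. The 3 morulae labelled Gabpb1 KO had 29.2, 75.0 and 76.3 CPM, and the 2 non-KO morulae had 19.5 and 11.1 CPM. The first of the 3 lay nearest to the non-KO pair, and the other two stood well above. Means were 60.2 ± 26.8 (SD, n = 3) and 15.3 ± 5.98 CPM (SD, n = 2), a 3.92-fold difference and a log2 fold change of 1.97 (SE 0.47), given as a description because Rhebl1 was chosen on it. Without the first morula labelled KO the log2 value was 2.44, and with libraries scaled to the ERCC spike-ins 1.20, a scaling under which the median of all genes moved to -0.40.

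The 2 Gabpb1 cross non-KO morulae had less Rhebl1 and more trophectoderm signal than each of the other 8 morulae. Rhebl1 in them was within the blastocyst range of 12 to 26.8 CPM or just below it. Their summed trophectoderm markers were 4684 and 3202 CPM, against 3049, 508 and 1687 CPM in the morulae labelled KO, and the embryo of that group with the most trophectoderm signal was the one with the least Rhebl1. Their summed markers of epiblast and inner cell mass (8 genes) were 418 and 224 CPM, against 443 to 571 CPM in the morulae labelled KO and 328 to 611 CPM in the 9 blastocysts, so that by these markers the morulae labelled KO lay within the blastocyst range and 1 of the non-KO pair below it. Their Rras, at 7.96 and 9.73 CPM, was below that of every blastocyst. The part of these marker differences in the Rhebl1 values was not tested.

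In the Alyref cross Rhebl1 of 1 non-KO morula was close to the KO morulae, and the other two were lower. KO morulae had 99 and 104 CPM and non-KO morulae 97.7, 74.4 and 38.9 CPM. The ranges just missed each other, with a log2 fold change of 0.53 (SE 0.43).

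**Figure D1:**
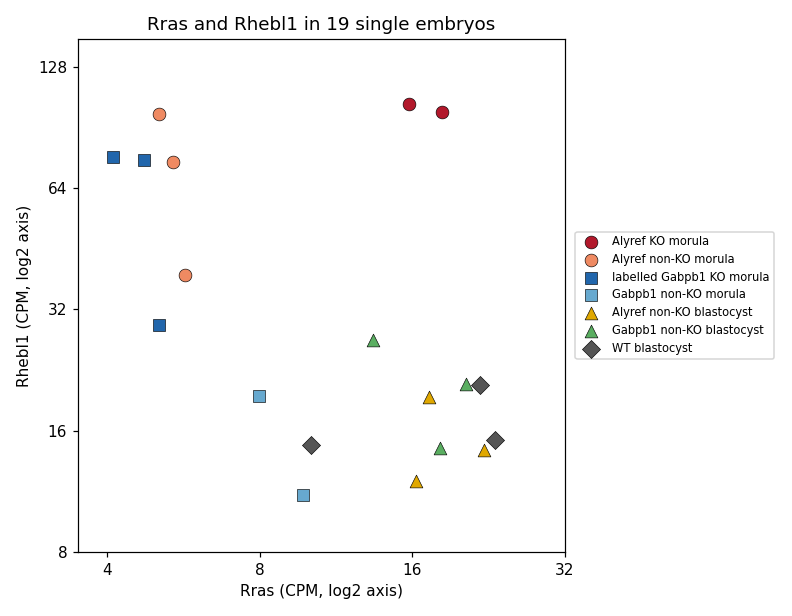
Rhebl1 against Rras in 19 single embryos, both in CPM on log2 axes, with a point per embryo coloured by group. The 2 Alyref KO morulae stand alone at the upper right with blastocyst-level Rras (15.8 and 18.3 CPM) and morula-level Rhebl1 (99 and 104 CPM), while the Gabpb1 cross non-KO morulae have blastocyst-level or lower Rhebl1 (19.5 and 11.1 CPM) and less Rras (7.96 and 9.73 CPM) than any blastocyst.

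As the scatter of both genes shows, embryos high in one were mostly low in the other, except for the Alyref KO pair. Over 19 embryos Pearson's r of log2(CPM + 1) was -0.50 between Rras and Rhebl1. Points share libraries and fall in groups, and r is a description.

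Stage was compared among non-KO embryos, where the groups differ in stage and not in the KO label. In the Alyref cross, blastocysts had far less Rhebl1 than morulae: 12, 14.3 and 19.4 CPM against 97.7, 74.4 and 38.9 CPM in morulae. Every blastocyst was below every morula, and the log2 fold change was -2.21 (SE 0.40, edgeR quasi-likelihood test with Benjamini-Hochberg adjustment over all genes, adjusted p 0.0078), a 4.64-fold fall. The morulae are also those of the Alyref KO comparison, but not of the Gabpb1 one that chose Rhebl1. Over the alternatives run its adjusted p ranged from 6.19e-06 to 0.0529, the last with only the compared groups in the fit.

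Hras was higher in blastocysts of the same comparison, with 139, 137 and 143 CPM against 90.6, 67.6 and 105 CPM in morulae. The log2 fold change was 0.67 (SE 0.19, edgeR adjusted p 0.0296) and all 3 blastocysts exceeded all 3 morulae. This call was lost in 5 of 6 fits that left out 1 embryo (adjusted p 0.0672 without the first morula, 0.123 without the second, 0.0854, 0.0864 and 0.0776 without the first, the second and the third blastocyst), and under spike-in scaling the value was 0.28. Its edgeR, limma or DESeq2 adjusted p ranged from 0.00116 to 0.861 over the alternatives.

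So 2 of 6 members tested passed in this cross, 1 up and 1 down, against 13% of all 18410 genes tested (5.62% up and 7.43% down). Rras is not among the 6, since its choice used these morulae: it was at 16.3, 22.2 and 17.3 CPM in blastocysts and 5.06 to 5.70 CPM in morulae, a log2 fold change of 1.78 (SE 0.30). Mras, at 221, 188 and 214 CPM in blastocysts, was above the morulae at 156, 127 and 156 CPM without passing (log2 0.50, SE 0.25, edgeR adjusted p 0.183). Counting Rras, 3 of 7 members lay wholly higher in blastocysts and 1 wholly lower, where 19.6% and 19.2% of all tested genes do so. Nras (0.23), Rheb (-0.35) and Rras2 (-0.05) overlapped between the stages and did not pass, with adjusted p of 0.511, 0.337 and 0.955 from edgeR.

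In the Gabpb1 cross 0 of 6 members passed, and neither did any of the 18410 genes (0%) in the edgeR test, of which 1237 (6.72%) had an unadjusted p under 0.05. DESeq2 called 51 genes there and 0 of the 6 members. Rras was the member furthest from 0: 20.4, 13.4 and 18.2 CPM in blastocysts against 7.96 and 9.73 CPM in morulae, a log2 fold change of 0.97 (SE 0.33) with an edgeR unadjusted p of 0.0101 and an adjusted p of 0.592. All 3 blastocysts were above both morulae, which is so for 11.5% of tested genes. Under spike-in scaling its log2 value fell to 0.12, as the median of all genes moved to -0.86. Mras also lay wholly higher in blastocysts and Rheb wholly lower (11.6% of tested genes lie wholly lower), with log2 values of 0.35 and -0.49 that did not pass (edgeR adjusted p 0.865 and 0.781). Rhebl1, described only, had 20.8, 26.8 and 14.4 CPM in blastocysts and 19.5 and 11.1 CPM in morulae, which overlap.

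The stage differences of the crosses were compared directly for the 5 members whose choice used neither set of morulae. None of the 5 differed after edgeR adjustment (1 of 18410 genes did, 0.00543%). Hras came nearest, with a stage difference lower by 0.56 on the log2 scale in the Gabpb1 cross (SE 0.28, unadjusted p 0.0592, adjusted p 0.381). For Rhebl1 the stage differences of the crosses were 2.64 apart (SE 0.61), a description since the Gabpb1 cross morulae chose it.

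**Figure D2:**
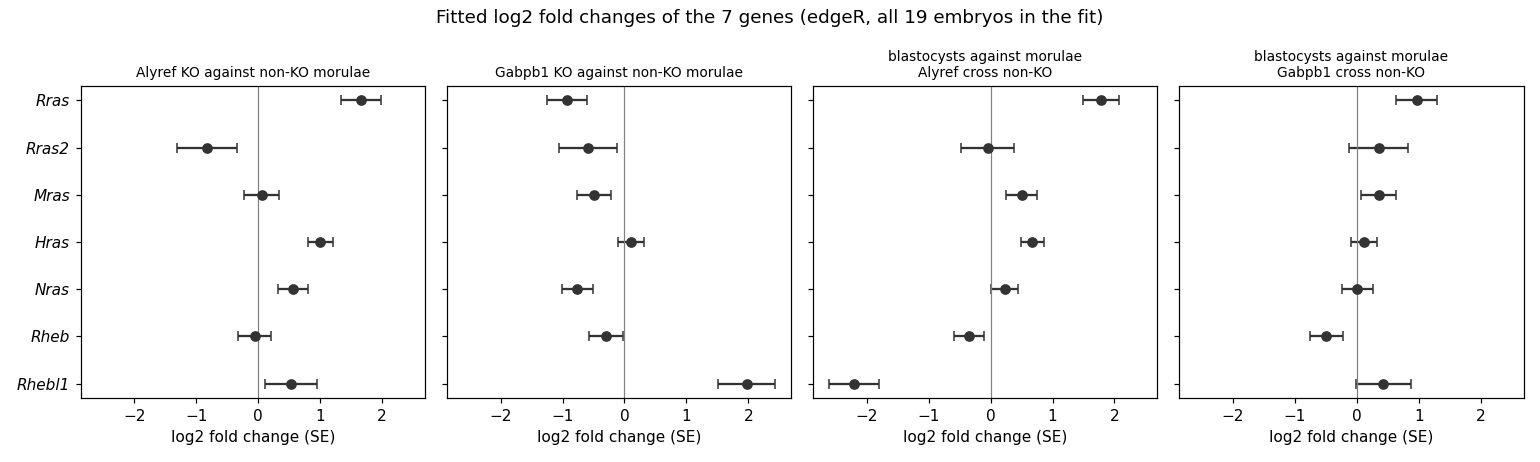
Fitted log2 fold changes of the 7 genes with their SE as whiskers, in the KO comparison of each cross (left) and in blastocysts against morulae of each cross (right). Rras is at 1.66 and -0.93 in the KO comparisons, and Rhebl1 is at 1.97 in morulae labelled Gabpb1 KO and at -2.21 in Alyref cross blastocysts.

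Hras, Nras and Rhebl1 were each higher in both Alyref KO morulae than in any of the other 17 embryos. The margins were narrow for Nras (131 against 129 CPM) and Rhebl1 (99 against 97.7 CPM). The share of all tested genes that do so was not counted, and nothing is read from it. For Hras the KO pair had 181 and 170 CPM and the other 17 embryos 67.6 to 160 CPM. Against the 90.6, 67.6 and 105 CPM of the non-KO morulae the log2 fold change was 1.00 (SE 0.20). In the Gabpb1 cross Hras did not separate the groups, with 110, 160 and 143 CPM in morulae labelled KO and 122 and 132 CPM in non-KO morulae (log2 0.11, SE 0.21).

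Nras, the other classical Ras gene, was at 131 and 135 CPM in Alyref KO morulae against 107, 55.0 and 109 CPM in non-KO morulae (log2 0.56, SE 0.25). It lay the other way in the Gabpb1 cross, with 71.3, 68.4 and 59.5 CPM in morulae labelled KO and 96.2 and 129 CPM in non-KO morulae (log2 -0.76, SE 0.25). Neither pair of ranges overlapped. Blastocysts kept within 99.4 to 129 CPM (median 109, n = 9), the narrowest spread relative to the mean of the 7 genes among blastocysts.

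Rras2, which encodes TC21 of the R-Ras branch, was at 43.3 and 25.7 CPM in Alyref KO morulae and at 76.6, 48.4 and 58.0 CPM in non-KO morulae, so that it lay opposite to Rras there (log2 -0.82, SE 0.48). In the Gabpb1 cross it overlapped, with 41.8, 17.6 and 42.2 CPM in morulae labelled KO and 76.9 and 24.9 CPM in non-KO morulae. That log2 value, -0.59 (SE 0.47), turned to 0.44 when the first non-KO morula was left out. The 2 non-KO morulae alone had an SD of 36.8 CPM around a mean of 50.9 CPM.

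Mras overlapped between KO and non-KO morulae in both crosses, with log2 values of 0.06 (SE 0.28) and -0.49 (SE 0.28). The second morula labelled Gabpb1 KO, at 65.4 CPM, was the lowest of the 19 embryos for Mras and for Rras2 (17.6 CPM), and it also had the least trophectoderm signal. Rheb overlapped in both as well, with log2 values of -0.06 (SE 0.27) and -0.30 (SE 0.27) and a range over all embryos of 174 to 362 CPM.

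Read as a set, 4 of 7 members lay wholly higher in Alyref KO morulae and 1 wholly lower, where 12.5% and 12.4% of tested genes do. In morulae labelled Gabpb1 KO, 1 lay wholly higher and 2 wholly lower, where 15.8% and 16.4% do. Nothing is read from these counts, since the comparisons supplied the members. Median log2 fold changes of the 7 were 0.53 and -0.49, and over all tested genes -0.04 and 0.06.

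**Figure D3:**
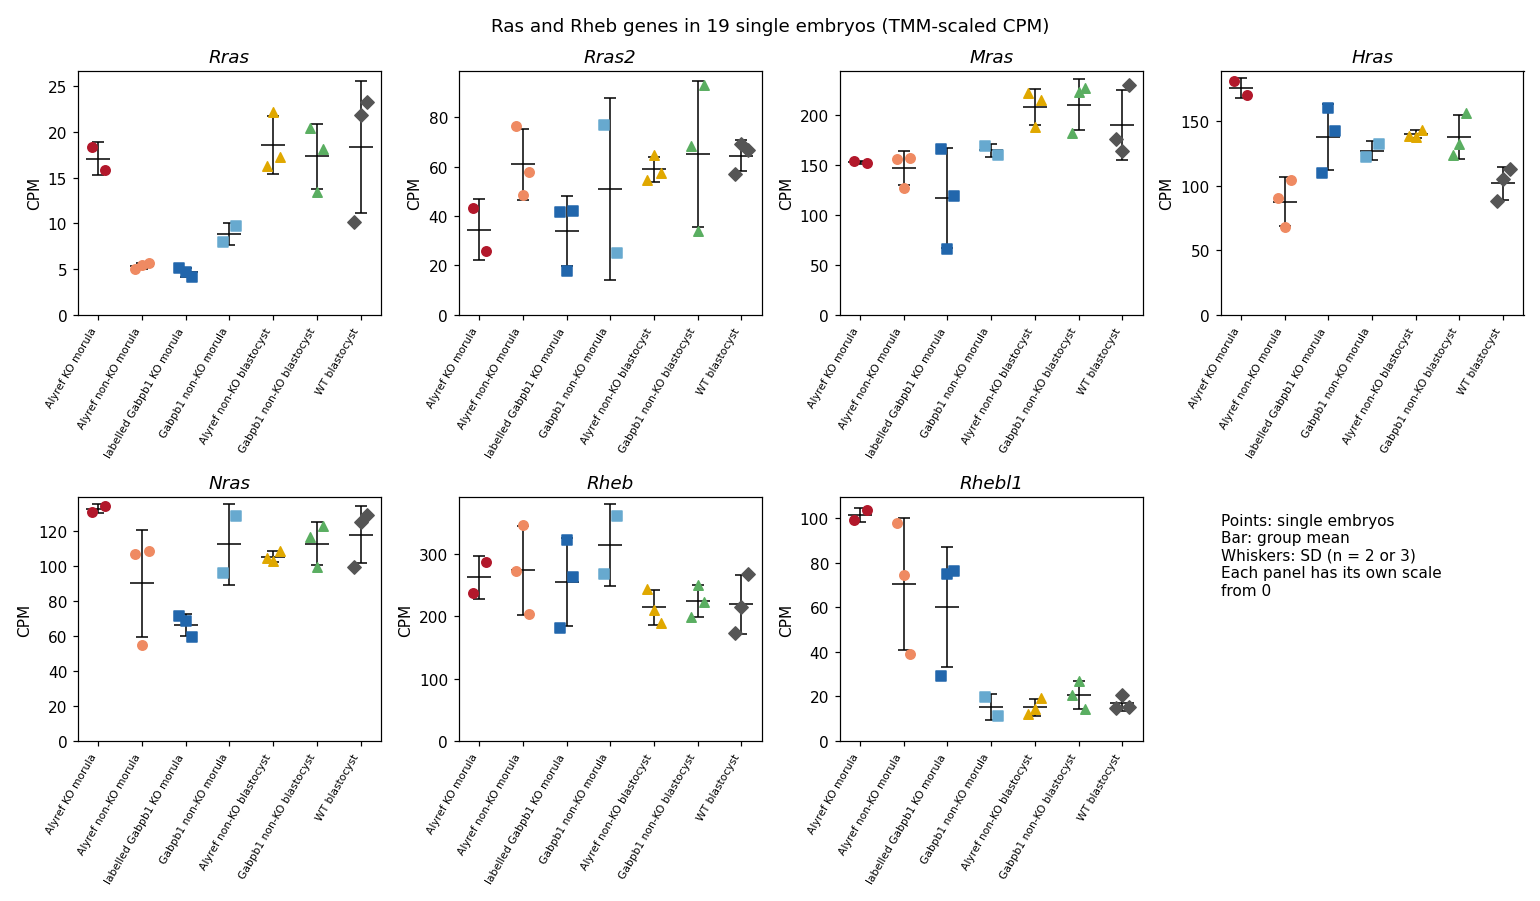
CPM of the 7 genes in each of 19 embryos, 1 panel per gene with a scale from 0, where points are embryos, bars are group means and whiskers are SD (n = 2 or 3). Rras in Alyref KO morulae (17.1 CPM on average) is at the blastocyst level, Hras is highest in the same embryos (175 CPM on average), and Rhebl1 is low in blastocysts and in Gabpb1 cross non-KO morulae.

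Blastocysts of different parents were also compared, none of which served to choose a member. In the comparisons of Alyref cross with WT, Gabpb1 cross with WT and Gabpb1 cross with Alyref cross, 0 of 7 members passed in edgeR, as did 0% of all genes in each. At an unadjusted p under 0.05 there were 541 (2.94%), 1123 (6.1%) and 646 (3.51%) genes, with Hras the sole member in the first 2 and no member in the last. DESeq2 called 15, 39 and 12 genes and no member. Hras was at 87.7, 105 and 113 CPM in WT blastocysts, at 139, 137 and 143 CPM in Alyref cross blastocysts and at 124, 133 and 156 CPM in Gabpb1 cross blastocysts. Both sets of cross blastocysts were wholly above the WT ones, as 6.01% and 6.56% of tested genes are, with log2 values of 0.45 (SE 0.19, unadjusted p 0.0261, edgeR adjusted p 1) and 0.43 (SE 0.19, unadjusted p 0.0332, edgeR adjusted p 0.80). These comparisons share the 3 WT embryos. Log2 values of the other 6 members against WT ran from -0.16 to 0.29.

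Ordered by group mean, Rras ran from 18.6 CPM in Alyref cross blastocysts through 18.4 in WT and 17.3 in Gabpb1 cross blastocysts to 17.1 in Alyref KO morulae, and these neighbours overlapped. A gap followed to 8.84 CPM in Gabpb1 cross non-KO morulae and a second to 5.39 in Alyref cross non-KO morulae, which overlapped with the last group, the morulae labelled Gabpb1 KO at 4.63 CPM. Rhebl1 ran from 101 CPM in Alyref KO morulae to 70.3 in Alyref cross non-KO morulae and 60.2 in morulae labelled Gabpb1 KO, of which the last pair overlapped. After a gap came the remaining 4 groups at 20.7, 16.9, 15.3 and 15.2 CPM, with each neighbour overlapping the next.

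Levels between genes were compared per length, as FPKM computed with the table's exon lengths. Mras was the most abundant of the 7 in each blastocyst group, at 37.0 ± 6.82 FPKM in WT blastocysts (SD, n = 3), where Rhebl1 was last at 8.72 ± 1.74 FPKM (SD, n = 3). In Alyref KO morulae Rhebl1 led instead, at 52.2 ± 1.71 FPKM (SD, n = 2), ahead of Hras at 47.0 ± 2.04 FPKM (SD, n = 2) and Rheb at 34.1 ± 4.52 FPKM (SD, n = 2). Rras was last in all 3 other morula groups, at 4.13 to 7.89 FPKM on average, although in Gabpb1 cross non-KO morulae Rhebl1 had nearly the same mean of 7.90 FPKM.

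The share of Rhebl1 in the summed FPKM of Rhebl1 and Rheb differed between these groups. In CPM Rheb (174 to 362) lay above Rhebl1 (11.1 to 104) in every embryo. The shares therefore depend on the merged exon lengths, 7721 bases for Rheb and 1940 for Rhebl1, which need not be those of the transcripts present. Rhebl1 made up 60.6% ± 2.39 (SD, n = 2) of the pair in Alyref KO morulae, 49.3% ± 8.30 (SD, n = 3) in the Alyref cross morulae called non-KO and 46.8% ± 7.33 (SD, n = 3) in morulae labelled Gabpb1 KO. It made up 16.7% ± 8.22 (SD, n = 2) in the Gabpb1 cross morulae called non-KO and 16.3% to 29.8% over the 9 blastocysts. Rras made up 27.9% ± 0.208 (SD, n = 2) of the summed FPKM of Rras, Rras2 and Mras in Alyref KO morulae, 9.65% ± 1.60 (SD, n = 3) in non-KO morulae of the Alyref cross and 15.2% to 27.5% over the 9 blastocysts.

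**Figure D4:**
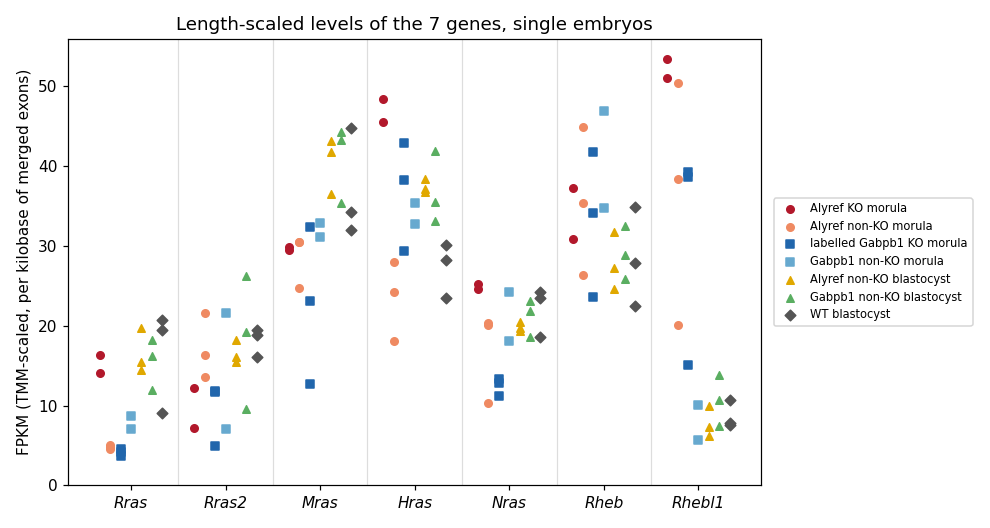
Levels per length (FPKM, TMM-scaled, linear axis from 0) of the 7 genes in 19 single embryos, with points coloured by group. Rhebl1 spans the widest range, from 5.72 FPKM in a Gabpb1 cross non-KO morula to 53.4 FPKM in an Alyref KO morula, and Rras is below 10 FPKM in all morulae except the Alyref KO pair.

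Around these switches, 9 lists of pathway genes held 150 genes, of which 117 were tested. The lists were written with earlier results of these data known, so counts of their genes are a description. In Alyref KO morulae 0 of the 117 passed in edgeR (0.228% of all genes did), with 18 at an unadjusted p under 0.05 (12.1% of all genes are), and DESeq2 called 4. In morulae labelled Gabpb1 KO 1 of 117 passed (0.855%, against 1.65% of all genes) and 32 had an unadjusted p under 0.05 (18.9% of all genes are). In Gabpb1 cross blastocysts against morulae 0 of 117 passed, with 13 at an unadjusted p under 0.05 (6.72% of all genes are) and 1 called by DESeq2. The median log2 fold changes of the 117 were -0.06, -0.10 and 0.10 in these comparisons, next to -0.04, 0.06 and 0.02 for all genes.

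The gene that passed was Lypla2, an acyl-protein thioesterase that takes palmitate off proteins and is among the enzymes studied for Ras depalmitoylation. It was at 1.03, 0.926 and 1.06 CPM in the 3 morulae labelled Gabpb1 KO and at 30.4 and 42.9 CPM in the 2 non-KO morulae. Every other embryo had at least 13.1 CPM. The log2 fold change was -5.17 (SE 0.39, edgeR adjusted p 1.08e-05). With only the compared groups in the fit the value was -5.18 and the adjusted p 0.152, the highest over the alternatives, the lowest being 5.3e-30. Since Lypla2 was listed with earlier results of these data known, its p-values are no independent test.

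In Alyref cross blastocysts against morulae 23 of 117 passed, 9 up and 14 down, or 19.7% against 13% of all genes. The count ranged from 3 (without the second morula or the second blastocyst) to 37 (without the third morula) and all 14 lower calls were lost in both of the fits with 3. The count was 10, 6 and 9 without the first morula, the first blastocyst and the third blastocyst. It was 1 under spike-in scaling and 0 with only the compared groups in the fit. At an unadjusted p under 0.05 there were 44, where 31.1% of all genes are. Of the 6 pathway genes named below with their values, Tbc1d7 kept its call whichever single embryo was left out, Prkaa1 lost it without the second morula or the second blastocyst, and Prkag1, Rraga, Castor1 and Tfeb kept it only in the fit without the third morula.

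Among genes upstream of Rheb, 3 of 13 tested passed (23.1%, against 13% of all genes). Tbc1d7, a subunit of the TSC complex, was at 45.8, 37.9 and 32.5 CPM in blastocysts and at 7.56, 4.98 and 11.3 CPM in morulae (log2 2.29, SE 0.45, edgeR adjusted p 0.0091). Prkaa1, a catalytic subunit of the energy sensor AMPK, was at 57.8, 33.6 and 41.5 CPM in blastocysts and at 148, 287 and 84.9 CPM in morulae (log2 -1.97, SE 0.43, edgeR adjusted p 0.0129). Prkag1, a regulatory subunit of AMPK, fell with it, by 1.44 on the log2 scale (SE 0.33, edgeR adjusted p 0.0152). So RNA of a subunit of the complex that switches Rheb off rose. RNA of 2 subunits of a kinase that activates this complex fell. The other tested genes of the list did not pass, and its median was -0.05, next to -0.04 for all genes. In the Gabpb1 cross stages, where none passed, the log2 values were 0.92 for Tbc1d7, -0.53 for Prkaa1 and -0.56 for Prkag1. Any effect on Rheb was not tested.

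The Rag, Ragulator and GATOR genes control whether mTORC1 is brought to the lysosome, where Rheb meets it. Of these, 4 of 19 passed (21.1%, against 13% of all genes). Rraga, the RagA GTPase, was at 45.4, 34.3 and 31.2 CPM in blastocysts and at 10.5, 3.97 and 16.9 CPM in morulae (log2 1.82, SE 0.56, edgeR adjusted p 0.0446), and Lamtor2 of Ragulator rose by 0.91. Castor1, an arginine sensor listed under its older symbol Gatsl3, was at 33.0, 64.4 and 37.9 CPM in blastocysts and at 145, 192 and 86.0 CPM in morulae (log2 -1.64, SE 0.45, edgeR adjusted p 0.0281). The leucine sensor Sesn2 fell by 1.11 on the log2 scale. In the Gabpb1 cross stages, where none passed, the log2 values were 0.83 for Rraga, 0.22 for Lamtor2, 0.015 for Castor1 and -1.07 for Sesn2.

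The list of mTORC1 and its targets had 6 of 14 called (42.9%, against 13% of all genes), 5 of them lower. All 5 lower calls were lost without the second morula or the second blastocyst. Tfeb, a transcription factor of lysosomal genes that mTORC1 holds in the cytoplasm, was at 58.8, 67.2 and 57.2 CPM in blastocysts and at 16.8, 9.29 and 30.3 CPM in morulae (log2 1.70, SE 0.50, edgeR adjusted p 0.0366). The lower genes were Mlst8 and Deptor of the complex itself (-1.14 and -1.10) and its substrates or targets Eif4ebp1 (-0.89), Rps6 (-0.61) and Ulk1 (-1.19). In the Gabpb1 cross stages, where none passed, the log2 values were -0.02 for Mlst8, 0.44 for Deptor and -0.48 for Eif4ebp1. Rps6 was at -0.02 there, Ulk1 at -0.82 and Tfeb at 0.61. The list's median was -0.34, and that of all genes -0.04. Names beyond Tfeb were added after their values were seen.

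On the Ras side, 2 of 13 in the RAF-MEK-ERK list passed (15.4%, against 13% of all genes). Among them was Ppp1cb, the phosphatase subunit that works with SHOC2 and M-Ras, which rose by 0.89 on the log2 scale. In the PI3K and RAL list 5 of 16 passed (31.2%), 4 higher and 1 lower in blastocysts. Among the higher were Rassf1 (1.66), Rgl2 (1.61) and Rala (1.02). Of 7 exchange factors and adaptors only Grb2 passed (-0.97), and of 8 GTPase-activating proteins and inhibitors and 14 prenylation and acylation genes 0 passed in edgeR (each had 2 at an unadjusted p under 0.05). These names too were added after their values were seen.

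The genes whose levels ran most like those of the chosen pair were picked from 11425 genes with a mean of at least 5 CPM, by Pearson's r of log2(CPM + 1) over 19 embryos. For Rras they were AI987944 (r 0.92), Trnau1ap (r 0.91), named for its association with the selenocysteine tRNA, and Fbxw17 (r 0.89), an F-box gene. AI987944 was at 12.2 CPM on average in Alyref KO morulae, 4.89 CPM in the non-KO morulae of the cross and 17.7 to 24 CPM in the blastocyst groups. For Rhebl1 they were Dll3 (r 0.96), a Notch ligand family gene, Tfpt (r 0.94) and Gm5612 (r 0.94). Dll3 averaged 33.1 CPM in Alyref KO morulae and 1.64 to 2.83 CPM in the blastocyst groups. Embryos share libraries and groups across genes, so these are descriptions of likeness. Among the 7 members Rras was most like Nras (r 0.75), and Rhebl1 was most like Rheb (r 0.35).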

How the data were processed

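Per the labels' protocols, each zona-free embryo was lysed alone, ERCC spike-ins were added, cDNA was amplified by PCR and Nextera XT libraries were sequenced in pairs. The submitters' processing notes name Trimmomatic, Trim Galore, cutadapt, STAR, featureCounts and mm10, with no role or version; the strand setting is not given in the sources used here. The authors deposited raw counts per gene (whole numbers in every cell), although the table is named for FPKM. Of 53379 gene identifiers 50604 occur in GENCODE M21, all with the same span.

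CPM and FPKM were computed from the counts with TMM-scaled library sizes (ERCC rows left out) and the deposited exon lengths. Genes with FPKM of 1 or more in at least 2 embryos were tested (18410) with edgeR 4.0.16 (R 4.3.3), quasi-likelihood F test, 1 mean per group over 19 embryos, Benjamini-Hochberg adjustment over all genes tested and a threshold of 0.05. The SE is the log2 fold change over the square root of F. P-values measure the spread between embryos. Alternatives used DESeq2 1.42.0, limma 3.58.1 (voom too), other scalings, filters, fits with the compared groups alone, a replicate block and leaving out each embryo. On simulated data of 18410 genes genes with a simulated log2 change of 1 were recovered in 1% of cases in the Alyref KO comparison, and those with 2 in 33%; for Alyref cross stage, 11% and 41%. Coding sequences were aligned with Biopython 1.88. PCR counts without molecular identifiers are not independent molecules.

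Members, pathway lists, marker lists and rules were chosen with earlier results of these data known. Named genes are the 7 members, Alyref, Gabpb1, each pathway gene called in a KO comparison, the 3 largest rises and falls among called pathway genes of a stage comparison (mean CPM of 5 or more), and the 3 genes most like Rras and Rhebl1. Further pathway genes named in the text were chosen after their values were seen. Some called pathway genes are not reported here by name. Members carry no test where their choice used the embryos.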

Additional observations from a re-analysis of the deposited data

Results flagged for a closer look

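Rras and Nras moved in opposite directions in the KO comparisons of the crosses, with every KO embryo on one side of its non-KO morulae in one cross and on the other side in the other. For Rras the log2 fold change was 1.66 in Alyref KO morulae and -0.93 in morulae labelled Gabpb1 KO. For Nras it was 0.56 and -0.76. Of all tested genes, 12.5% lay wholly higher in Alyref KO morulae and 16.4% wholly lower in morulae labelled Gabpb1 KO. The share that does both was not counted, so nothing is read from these 2 genes as a set. The difference between crosses was not tested, since the comparisons supplied the members. The non-KO morulae set against them also differ between crosses, at 5.06 to 5.70 CPM of Rras in the Alyref cross and 7.96 and 9.73 CPM in the Gabpb1 cross.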

How the results depend on the processing

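Rras in Alyref KO morulae kept its direction and size under all alternatives (log2 1.54 to 1.74), and Rhebl1 in morulae labelled Gabpb1 KO its direction (1.20 to 2.44). Both genes were chosen on these comparisons and the alternatives reuse their embryos, so the ranges are descriptions and no further evidence. In the Alyref KO comparison 0 of all genes were called under ERCC scaling and with the compared groups alone. Of 7 members, 0 passed in any of the 3 blastocyst comparisons, and 0 of 6 in the Gabpb1 cross stages, under every alternative run. Where values changed the cause was not tested, except that fits with the compared groups alone hold fewer embryos.

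Pathway genes called in Alyref KO morulae (0) became 4 with DESeq2, 1 with limma on log2(FPKM + 1) and 10 with voom weights, and 0 to 2 with 1 embryo left out. In morulae labelled Gabpb1 KO (1) they became 2 with RLE size factors, 11 with DESeq2, 3 and 4 with limma at pseudocounts of 1 and 0.1, 4 without a filter, 2 with filterByExpr, 0 with the compared groups alone and 3 with voom, and 1 to 8 with 1 embryo left out (8 without the first labelled KO, 2 without the first non-KO morula). In the Alyref cross stages (23) they became 1 with ERCC scaling, 36 with DESeq2, 15 without a filter, 0 with the compared groups alone and 55 with voom, and 3 to 37 with 1 embryo left out. In the Gabpb1 cross stages (0) DESeq2 called 1. Members called in the Alyref cross stages (2) became 1 with ERCC scaling, 1 without a filter, 0 with the compared groups alone and 1 to 2 with 1 embryo left out.

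ERCC scaling moved the median of all genes to -0.40 (morulae labelled Gabpb1 KO), -0.34 and -0.86 (stages, Alyref and Gabpb1 cross). With it Hras in morulae labelled Gabpb1 KO was -0.47, Nras in the Alyref cross stages was -0.22, and in the Gabpb1 cross stages Rras2 was -0.58, Mras -0.57, Hras -0.81, Nras -0.88 and Rhebl1 -0.43. Rras2 in the Alyref cross stages was 0.067 and 0.072 with limma at pseudocounts of 1 and 0.1, 0.018 without a filter and -0.16 to 0.17 with 1 embryo left out. In the Gabpb1 cross stages (0.35) it was -0.24 to 1.38 with 1 left out, and in morulae labelled Gabpb1 KO (-0.59) -1.18 to 0.44. Nras in the Gabpb1 cross stages (0.00) was -0.0099 with RLE, -0.0095 with DESeq2, -0.0024 and -0.0023 with limma, -0.018 with the compared groups alone and -0.19 to 0.23 with 1 embryo left out, and in the Alyref cross stages it was -0.0041 to 0.39 with 1 left out. With 1 embryo left out Hras between cross blastocysts was -0.12 to 0.048, Alyref in morulae labelled Gabpb1 KO (-0.28) was -0.57 to 0.072, and in Alyref KO morulae Mras was -0.048 to 0.11 and Rheb -0.23 to 0.14. Alyref in Alyref KO morulae (-2.06) was -2.24 to -1.81 with 1 embryo left out, and its call was lost without the first non-KO morula (edgeR adjusted p 0.0655). Since missing reads in the same libraries gave the label, this call is a description.

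The replicate numbers in the titles link no embryos by parent or batch, and same-numbered embryos deviated together weakly or not (r from -0.13 to 0.15). With the replicate block 0, 1, 21 and 0 pathway genes and 2 and 0 members were called in the KO and stage comparisons, in the order used above, and 0 members in each blastocyst comparison. Over all genes the block called 8, 266 and 2014 in place of 42, 303 and 2402, and turned Rras2 in the Alyref cross stages to 0.0198 and Nras in the Gabpb1 cross stages to -0.049.

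Groups of 2 or 3 embryos and 51 to 504 counts of Rras limit the precision. Most differences of 1 on the log2 scale are out of reach of the test.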

Other observations

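Among 13 tested GTPases of the wider Ras family (Rap, Rit, Rasl and their like), the adhesion regulators Rap1a and Rap2a were lower in Alyref cross blastocysts than in morulae. These 2 are 15.4% of the 13, close to the 13% of all tested genes that passed. Rap1a was at 107 ± 13.2 CPM (SD, n = 3) in blastocysts and 219 ± 56.3 CPM (SD, n = 3) in morulae, a log2 fold change of -1.03 (SE 0.26, edgeR adjusted p 0.021). Rap2a was at 7.01 ± 2.95 CPM (SD, n = 3) and 16.9 ± 7.21 CPM (SD, n = 3), a log2 fold change of -1.27 (SE 0.37, edgeR adjusted p 0.035). Both calls were lost without the second morula or the second blastocyst. Neither passed in edgeR in the Gabpb1 cross stages, with log2 fold changes of 0.10 for Rap1a (adjusted p 0.98) and -1.30 for Rap2a (adjusted p 0.528). The other 11 did not pass in the Alyref cross stages, none of the 13 passed in either KO comparison in edgeR (3 and 5 had an unadjusted p under 0.05, as 12.1% and 18.9% of all genes had), and both names were chosen after their values were seen.

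Over all 19 embryos Gabpb1 itself overlapped between the stages. It was at 38.3 to 77.9 CPM in the 9 blastocysts and at 50.9 to 259 CPM in the 10 morulae, and it passed in neither stage comparison. Among non-KO embryos of each cross it lay wholly lower in blastocysts. So did 19.2% of tested genes in the Alyref cross and 11.6% in the Gabpb1 cross. In the Alyref cross Gabpb1 was at 38.7 to 43.2 CPM in blastocysts and 53.1 to 106 CPM in morulae. In the Gabpb1 cross it was at 45.9 to 77.9 CPM and at 83.2 and 93.8 CPM. Its log2 fold change in blastocysts against morulae was -1.04 in the Alyref cross (SE 0.35, edgeR adjusted p 0.0569) and -0.62 in the Gabpb1 cross (edgeR adjusted p 0.80).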
